A study of Mus musculus with 12 samples.

Results

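The *Lims1*, *Lims2*, *Fblim1*, *Fhl1*, *Fhl2*, *Csrp1*, *Pdlim3*, *Pdlim5*, *Pdlim7*, and *Ldb3* transcripts, which encode LIM and PDZ-LIM adaptors of the actin cytoskeleton, were followed across the mouse colon and urinary bladder after deletion of *Yap1* and *Wwtr1* in smooth muscle. These 10 genes were picked by symbol from the 54532 genes of the tables, each had a single row per library, and all 10 passed the filter on low values in both tissues. The Y/T KO mice carried floxed *Wwtr1* and *Yap1* alleles and the Myh11CreERT2 transgene, a tamoxifen-dependent Cre recombinase driven by the smooth muscle myosin heavy chain promoter and carried on the Y chromosome. The Ctrl mice carried the same floxed alleles without Cre. All mice were males of 5 to 7 weeks, mice of both genotypes received tamoxifen at 1 mg per mouse per day in 5 daily injections, and tissue was taken on day 7 after the first injection, so that no group was free of floxed alleles or of tamoxifen. There were 3 libraries for each genotype in each tissue, 12 in all, from 9 mice, and mice 788 (Ctrl), 783 (Y/T KO), and 780 (Y/T KO) gave both tissues.

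LIM domains are zinc-binding protein-interaction modules, and the adaptors that carry them link actin filaments, alpha-actinin, and integrin adhesions. The PINCH proteins encoded by *Lims1* and *Lims2* form a complex with integrin-linked kinase (encoded by *Ilk*) and parvins at the cytoplasmic side of integrins. *Fblim1* encodes migfilin, which binds filamin and kindlin at the same adhesions. *Fhl1* and *Fhl2* encode proteins made of LIM domains that act at the sarcomere and as transcriptional cofactors, *Csrp1* encodes a cysteine-rich protein of smooth muscle that binds alpha-actinin and zyxin, and *Pdlim3*, *Pdlim5*, *Pdlim7*, and *Ldb3* encode proteins that anchor a PDZ domain to alpha-actinin, *Ldb3* being best known from the Z-disc of striated muscle. Many smooth muscle cytoskeletal genes are controlled by serum response factor through the CArG box, and YAP and TAZ reach DNA through TEAD factors.

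In the GRCm38 coordinates of the files, *Lims1* spans chr10:58323466-58424691 (plus strand), *Fblim1* chr4:141576062-141606096 (minus strand), *Fhl1* chrX:56731787-56793346 (plus strand), and *Fhl2* chr1:43123074-43196984 (minus strand). *Csrp1* spans chr1:135720061-135752232 (plus strand), *Pdlim3* chr8:45885461-45919548 (plus strand), *Pdlim5* chr3:142239590-142395696 (minus strand), *Pdlim7* chr13:55495795-55513676 (minus strand), and *Ldb3* chr14:34526603-34588682 (minus strand). All 10 are protein coding in the GENCODE M21 annotation.

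RefSeq promoter windows (GRCm38.p6), from 250 bases before to 50 bases after a start site, were found for 9 of the 10 members, all but *Lims2*, and numbered 17. A CArG box was found in windows of 3 of these 9 genes, *Fhl1*, *Fhl2*, and *Ldb3*, and in 1.81% of the 27025 genes with a window. The TEAD motif GGAATG, searched on both strands, was found in windows of 2 of the 9 genes, *Fblim1* and *Pdlim3*, and in 16.6% of all genes. A gene with more windows has more chances of a match. By window, the TEAD motif was in 2 of the members' 17 windows, beside 14.7% of all 32851 windows. The CArG box was in 5 of 17, beside 1.63%, with the same *Ldb3* box counted in overlapping windows. The sites are printed because they are the letters of the 2 transcription factor motifs that occur among the members, which are compared below with the genotype effect. Each is read 5′ to 3′ in the direction of transcription, with the motif in capitals, and no CArG box overlapped a TEAD motif.
*Fhl1*, chrX:56779563-56779682, plus strand, ending at the base before a start site, in an intron of longer transcripts: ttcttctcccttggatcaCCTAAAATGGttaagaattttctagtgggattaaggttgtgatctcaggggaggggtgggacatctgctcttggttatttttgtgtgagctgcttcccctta
*Fhl2*, chr1:43163962-43164081, minus strand, ending at the base before a start site, in an intron of longer transcripts: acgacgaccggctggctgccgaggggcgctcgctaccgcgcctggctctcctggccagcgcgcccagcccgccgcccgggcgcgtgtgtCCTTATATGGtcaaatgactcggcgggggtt
*Fhl2*, chr1:43196838-43196867, minus strand, before another start site: catttagagaCCAAAAAAGGcttgcaggag
*Ldb3*, chr14:34588697-34588726, minus strand: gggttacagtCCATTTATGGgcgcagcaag
*Fblim1*, chr4:141606106-141606135, minus strand: ctgtgagtcagaCATTCCgtgcagctcagt
*Pdlim3*, chr8:45885274-45885303, plus strand: gtgttacttaatGGAATGatggaagctgta
*Pdlim3*, chr8:45885457-45885486, plus strand: ggataaatctccgggacagCATTCCcagtt
In CATTCC the TEAD motif lies on the other strand. The *Pdlim3* stretch at chr8:45885457-45885486 and the *Fhl2* stretch at chr1:43196838-43196867 each overlap 1 exon of their gene in GENCODE M21. Of the 3 genes with a CArG box, the log2 fold change between genotypes in the bladder was −1.59 for *Fhl1*, −0.30 for *Fhl2*, and 0.68 for *Ldb3*. In the colon these were −0.64, 0.39, and −0.23, none called in either tissue, and of the 2 genes with a TEAD motif neither passed the test between genotypes in either tissue. A match to these letters does not show that a factor binds there.

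Aligned sequence ran from 2.80 to 3.94 gigabases per library. *Yap1* was at 104, 99.1, and 106 rescaled TPM (transcripts per 1000000, adjusted for transcript length, rescaled within a tissue) in the Ctrl bladders and at 68.7, 72.3, and 71.8 in the Y/T KO bladders, without overlap (log2 fold change −0.54, adjusted p = 0.0625). In the colon *Yap1* overlapped between genotypes (log2 fold change −0.18, adjusted p = 0.697), and *Wwtr1* was not lower on average in either tissue (0.18 and 0.24). A level summed over a whole gene does not show whether a floxed exon was lost. By Western blot the paper reported less YAP and TAZ protein in the Y/T KO colon, which RNA libraries do not measure. The 10 colonic epithelium markers summed to 4929 to 5625 TPM in Ctrl and 3512 to 4680 TPM in Y/T KO colons, without overlap. In the bladder they summed to 313 to 383 TPM. The 9 urothelium markers summed to 6868 to 7569 TPM in Ctrl and 5480 to 7068 TPM in Y/T KO bladders, and to 129 to 176 TPM in the colon. Each list was thus high in the tissue that the labels say. A list of 12 smooth muscle genes (*Myh11*, *Acta2*, and others) summed to 8773 to 9617 TPM in Ctrl and 5735 to 6739 in Y/T KO colons. In Ctrl bladders the sum was 39213 to 52452 TPM. In the Y/T KO bladders of mice 782, 783, and 780 it was 37288, 24627, and 20394 TPM. The median log2 fold change of this list was −0.49 (colon) and −0.67 (bladder), with none called in either tissue (limma). On average 12 of 12 genes were lower in each tissue, beside 49.1% (colon) and 49.8% (bladder) of all genes. Without overlap 8 of 12 were lower in the colon (7.87% of all genes) and 6 of 12 in the bladder (11.4%). In whole-tissue RNA, fewer smooth muscle cells and less RNA per cell cannot be told apart.

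Markers of other cell types were also present and differed between libraries. *Mylpf*, the fast skeletal myosin light chain, was at 1667 TPM in the Y/T KO bladder of mouse 783, 1410 TPM in that of 780, and 165 TPM in the Ctrl bladder of 784, against 1.67 to 3.53 TPM in the other 3 bladders. The 12 skeletal muscle markers summed to 7688 and 8506 TPM in the bladders of 783 and 780, and to 1287 to 2174 TPM in the other 4. In the bladders of 782, 785, and 788 most of that sum was *Acta1* (915 to 1137 TPM) and *Tnnt3* (222 to 277 TPM), with *Myh4* at 0 TPM. The bladders of 783 and 780 also had the lowest smooth muscle sums of the bladders. Pancreatic acinar markers summed to 9.28 to 153 TPM in Ctrl and 1.34 to 2.27 TPM in Y/T KO colons, and adipocyte markers to 121 to 253 and 127 to 145 TPM. In the bladder, adipocyte markers summed to 1546 to 2574 TPM in Ctrl and 2265 to 3238 TPM in Y/T KO.

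*Csrp1* was the most abundant member in every group. In the Ctrl colon it made up 58.0% of the summed rescaled TPM of the 10 genes, followed by *Fhl1* (296 ± 75.9, SD, n = 3), *Pdlim3* (147 ± 21.03), *Fblim1* (98.8 ± 1.65), *Pdlim7* (58.3 ± 13.8), *Lims1* (54.3 ± 7.40), *Fhl2* (43.0 ± 4.45), *Pdlim5* (42.1 ± 3.05), *Lims2* (27.4 ± 2.55), and *Ldb3* (7.75 ± 0.40). Neighbors in this order did not overlap, except *Pdlim7* with *Lims1* and *Fhl2* with *Pdlim5*. In the Ctrl bladder *Csrp1* (7009 ± 446) made up 74.8% of the sum. There the order was *Pdlim3* (969 ± 54.5), *Fhl1* (686 ± 218), *Pdlim7* (184 ± 21.6), *Lims2* (121 ± 35.5), *Fblim1* (117 ± 12.8), *Lims1* (81.9 ± 10.2), *Pdlim5* (79.1 ± 12.7), *Fhl2* (69.8 ± 12.8), and *Ldb3* (47.3 ± 12.3), and the libraries of neighbors overlapped for *Pdlim3* and *Fhl1*, for *Lims2* and *Fblim1*, and for each pair from *Lims1* downward. *Lims2* thus stood below *Lims1* in every Ctrl colon and above it in every Ctrl bladder.

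**Figure D1:**
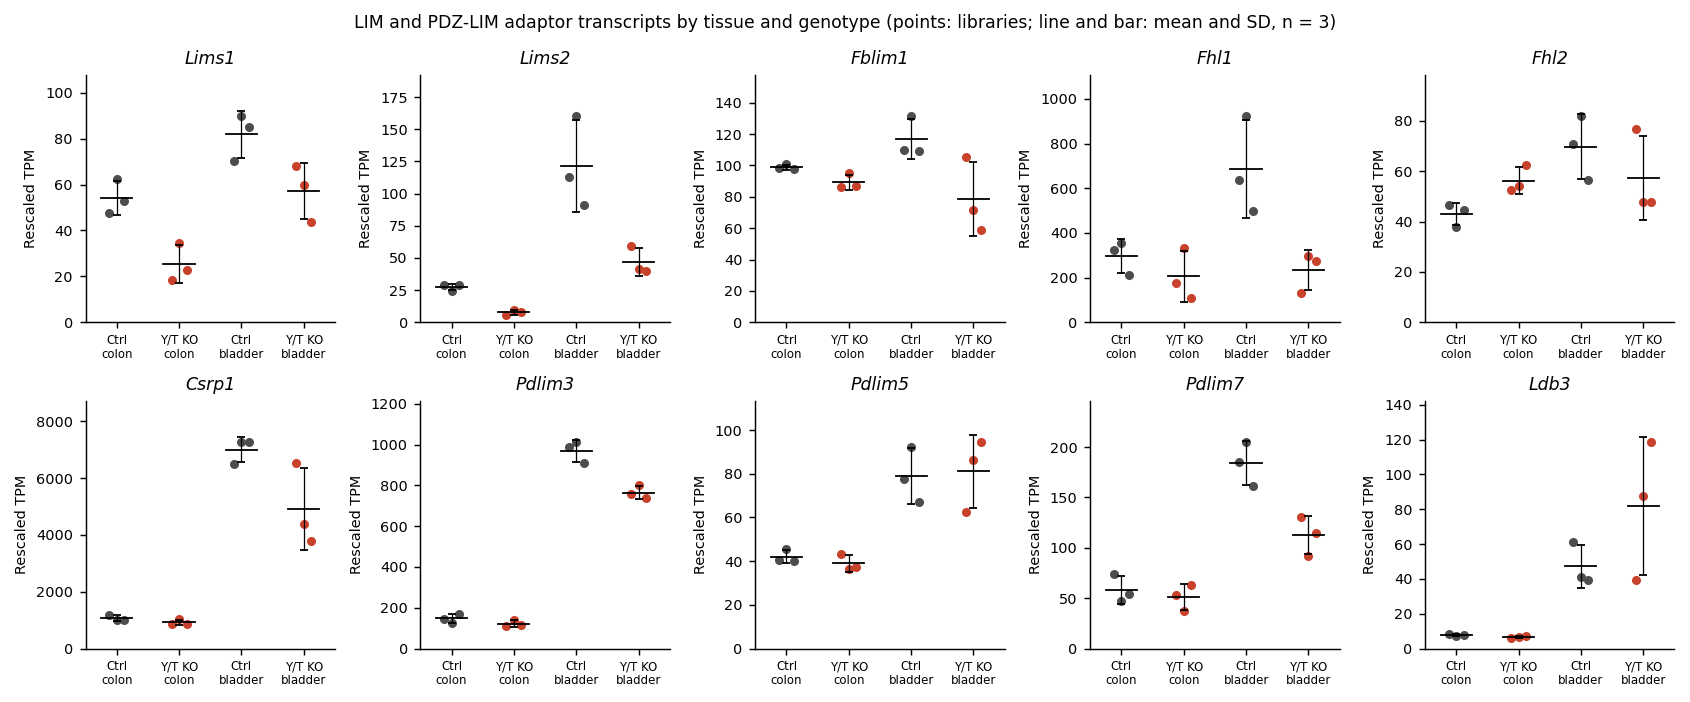
TPM of each member, rescaled within its tissue (vertical axis, from 0, a separate scale for each gene), in Ctrl (grey) and Y/T KO (red) libraries of the colon and bladder. Points are libraries and lines and bars are the mean and SD of 3. *Lims2* lies between 24.5 and 28.9 in the Ctrl colons and between 5.48 and 9.54 in the Y/T KO colons.

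Of the 10 members, 6 were higher in the Ctrl bladder than in the Ctrl colon at an adjusted p under 0.05, where 23.7% of 16298 genes were called higher. On the log2 scale the difference was 2.45 ± 0.13 (SE) for *Pdlim3*, 2.43 ± 0.18 for *Csrp1*, 2.29 ± 0.32 for *Ldb3*, 1.83 ± 0.24 for *Lims2*, 1.40 ± 0.21 for *Pdlim7*, and 0.62 ± 0.17 for *Pdlim5*. The smooth muscle list had a median difference of 2.16. *Fhl1* (0.92 ± 0.44, adjusted p = 0.107), *Fhl2* (0.41 ± 0.19, adjusted p = 0.104), *Lims1* (0.31 ± 0.23, adjusted p = 0.288), and *Fblim1* (−0.04 ± 0.18, adjusted p = 0.869) did not pass, although with TPM as deposited *Fhl1* (1.18, adjusted p = 0.0481) and *Fhl2* (0.67, adjusted p = 0.0142) were also called, beside 31.1% of all genes. When each library was divided by the geometric mean of its smooth muscle list, no member was called higher in the Ctrl bladder (1.31% of all genes) and 6 were called lower (87.8% of all genes), where the median of all genes was −2.26. In Y/T KO mice the same scaling gave 6 members called lower (87% of all genes) and 1 higher (1.64%), *Ldb3*. With median-of-ratios scaling 7 members were called higher in the Y/T KO bladder, the same 6 and *Lims1* (0.94 ± 0.23, adjusted p = 0.00521), beside 23.8% of all genes. Without the 3 bladder libraries rich in *Mylpf*, which leaves 1 Y/T KO bladder, 6 were called (16.7% of all genes), *Pdlim5* being at 0.45 (adjusted p = 0.149). With all libraries *Fblim1* was called lower in the Y/T KO bladder (−0.48 ± 0.18, adjusted p = 0.0417), as were 25.9% of all genes. That call was lost in 9 of the 12 fits that left out 1 library (adjusted p up to 0.174). Without the *Mylpf*-rich bladders the difference of *Fblim1* was 7.69e-05 on the log2 scale.

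**Figure D2:**
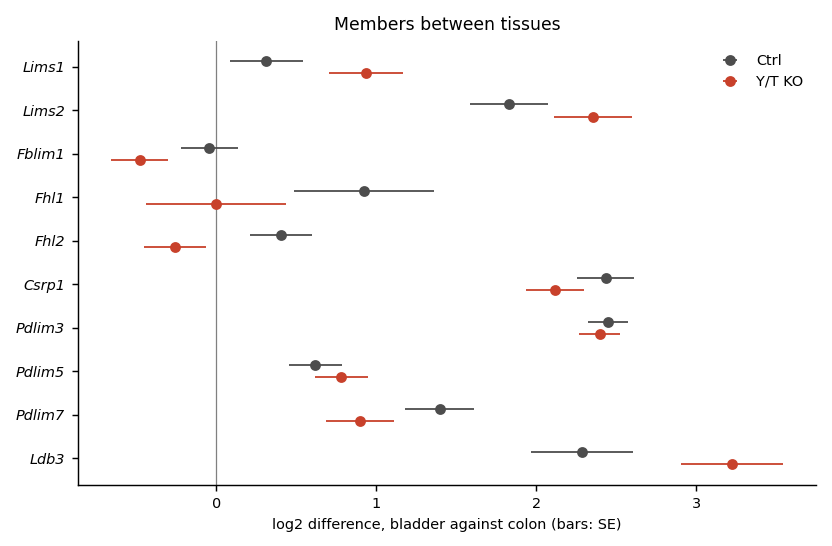
Log2 difference of each member between bladder and colon (horizontal axis) in Ctrl (grey) and Y/T KO (red) mice, with bars of 1 SE from a fit to all 12 libraries. *Pdlim3* and *Csrp1* lie above 2 in both genotypes and *Fblim1* lies below 0.

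In the colon, *Lims2*, on chromosome 18, was lower in Y/T KO than in Ctrl mice and was the only member called between genotypes in either tissue. *Lims2* was at 28.8, 24.5, and 28.9 rescaled TPM in the Ctrl colons of mice 788, 786, and 787, and at 5.48, 9.54, and 7.97 in the Y/T KO colons of 759, 783, and 780. The highest Y/T KO value was thus below the lowest Ctrl value. The log2 fold change was −1.86 ± 0.23 (SE), to 0.276 of the Ctrl level, with an adjusted p of 0.0409 (limma), and *Lims2* ranked 18 by p among the 17500 genes, of which 0.08% were called lower. The adjusted p was 0.102 to 0.147 when any of Ctrl 788, 786, or 787 or Y/T KO 783 or 780 was left out and 0.0275 without Y/T KO 759, and it was 0.0777 without the filter on low values. The fold change itself lay between −2.03 and −1.64 in these 6 fits.

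*Lims1*, which encodes the other PINCH protein, was at 47.8, 62.4, and 52.8 rescaled TPM in Ctrl colons and at 18.6, 34.5, and 23.0 in Y/T KO colons. The genotypes did not overlap, and the log2 fold change of −1.14 ± 0.24 had an adjusted p of 0.222. *Fblim1* was at 98.2, 101, and 97.4 in Ctrl and 86.0, 94.8, and 86.8 in Y/T KO colons, a separation without overlap but a log2 fold change of only −0.15 ± 0.12 (adjusted p = 0.707). Of the genes for partners in complexes with PINCH, *Ilk* was at −0.18 ± 0.14 on the log2 scale (adjusted p = 0.682) and *Parva* at −0.31 ± 0.16 (adjusted p = 0.578). *Parvb* was at −0.08 ± 0.21 (adjusted p = 0.919) and *Rsu1* at −0.13 ± 0.14 (adjusted p = 0.774). The genotypes overlapped for each of these genes. *Parvg*, at 0.50 ± 0.25 (adjusted p = 0.569), was higher in every Y/T KO than in every Ctrl colon.

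*Fhl2* was the only member with a higher mean in the Y/T KO colon. Its rescaled TPM was 46.4, 38.0, and 44.6 in Ctrl and 52.6, 54.0, and 62.3 in Y/T KO mice. All 3 Y/T KO values were above all 3 Ctrl values, as were those of 8.24% of all genes, with a log2 fold change of 0.39 ± 0.15 and an adjusted p of 0.483. *Gm8210*, a gene inside *Fhl2* on the opposite strand, was at 20.1 to 22.8 TPM in Ctrl colons and at 19.8, 0.092, and 0.693 TPM in the Y/T KO colons of 759, 783, and 780, and at 17.8 to 26.5 TPM in Ctrl and 0.076 to 0.367 TPM in Y/T KO bladders. The strand setting of the counting is not given in the sources used here, and the part of *Gm8210* in the *Fhl2* values was not tested. *Fhl1* was at 322, 355, and 210.1 in Ctrl and 174, 331, and 109 in Y/T KO colons. Its groups overlapped through Y/T KO mouse 783, and the log2 fold change was −0.64 ± 0.41 (adjusted p = 0.638).

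The remaining members differed little between the colons. *Csrp1* was at 1183, 1008, and 1022 rescaled TPM in Ctrl and 868, 1025, and 878 in Y/T KO mice (log2 fold change −0.21 ± 0.15, adjusted p = 0.669). The PDZ-LIM genes had log2 fold changes of −0.27 ± 0.16 (*Pdlim3*), −0.11 ± 0.14 (*Pdlim5*), −0.20 ± 0.24 (*Pdlim7*), and −0.23 ± 0.17 (*Ldb3*), with adjusted p from 0.626 to 0.805. Of these, *Ldb3* did not overlap, at 7.31 to 8.10 rescaled TPM in Ctrl and 6.23 to 7.00 in Y/T KO mice. Altogether 9 of 10 members were lower on average in the Y/T KO colon, beside 49.1% of all genes, and 4 were lower without overlap, beside 7.87%. The median log2 fold change of the members was −0.22, beside 0.01 for all genes, and it turned positive (0.30) when scaled to the smooth muscle list.

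**Figure D3:**
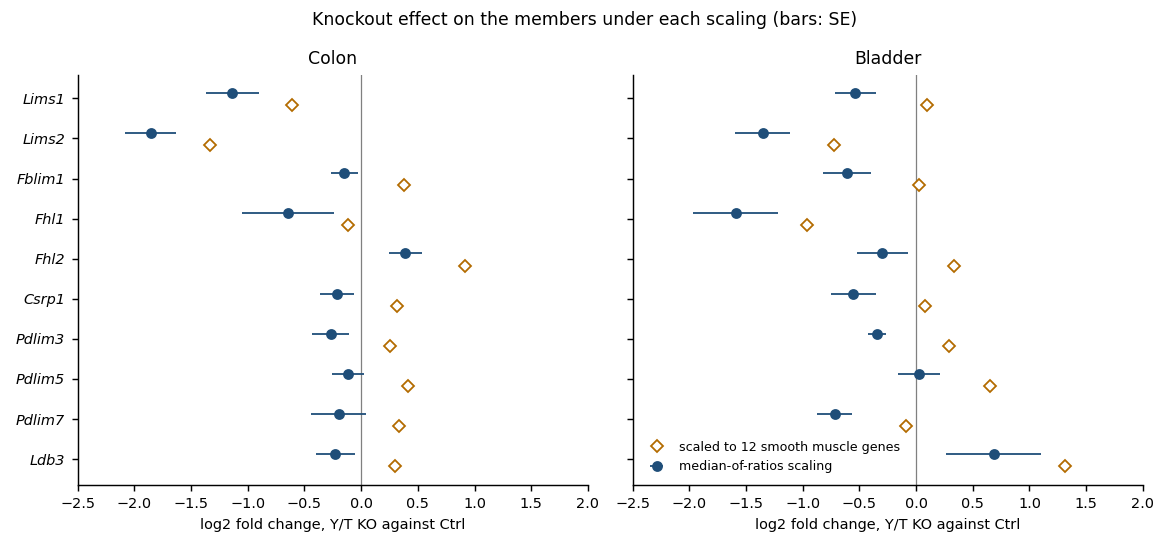
Log2 fold change of each member in Y/T KO against Ctrl mice (horizontal axis), in the colon (left) and bladder (right). Filled circles with bars of 1 SE are the values after median-of-ratios scaling, and open diamonds are the values when each library is scaled to 12 smooth muscle genes. *Lims2* lies left of 0 under both scalings in both tissues.

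In the bladder, 8 of 10 members were lower on average in Y/T KO mice, beside 49.8% of all genes, and none passed the adjusted threshold, which 0.219% of 18237 genes passed in that direction. At an unadjusted p under 0.05, 7 members were lower (8.2% of all genes), and 6 were lower without overlap (11.4% of all genes). The median log2 fold change was −0.54, beside 0.002 for all genes. It was −0.33 without the 3 *Mylpf*-rich bladders and 0.086 when scaled to the smooth muscle list.

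*Lims2* was at 113, 160.4, and 91.1 rescaled TPM in the Ctrl bladders of 784, 785, and 788, and at 59.2, 41.4, and 40.0 in Y/T KO mice 782, 783, and 780. Each Y/T KO value was below each Ctrl value, and the log2 fold change was −1.35 ± 0.24 (adjusted p = 0.103), to 0.391 of Ctrl. With all 12 libraries in a single fit the adjusted p was 0.0468, and 0.0463 with the mouse as a block. *Lims1* was at 70.5, 90.0, and 85.3 in Ctrl and 68.0, 59.7, and 43.8 in Y/T KO bladders. The gap between the genotypes was narrow, and the log2 fold change was −0.53 ± 0.18 (adjusted p = 0.261). *Ilk* was also lower without overlap (−0.50 ± 0.13, adjusted p = 0.175), while *Parvb* (−0.09) and *Parvg* (−0.55) overlapped. The mean rescaled TPM of *Parva* was 231 ± 15.8 (SD) in Ctrl and 185 ± 33.7 in Y/T KO bladders. For *Rsu1* it was 196 ± 34.7 and 176 ± 19.9.

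*Fhl1* had the most negative log2 fold change of the members in the bladder. It was at 637, 924, and 497 rescaled TPM in Ctrl and 131, 297, and 275 in Y/T KO bladders, without overlap (log2 fold change −1.59 ± 0.37, to 0.332 of Ctrl, adjusted p = 0.162). The lowest value was that of mouse 782, whose bladder had little *Mylpf* transcript. *Pdlim7*, the Enigma adaptor, was at 185, 205, and 162 in Ctrl and 130.2, 92.3, and 115 in Y/T KO bladders (−0.72 ± 0.15, adjusted p = 0.141). *Pdlim3* was at 988, 1012, and 908 in Ctrl and 756, 799, and 736 in Y/T KO bladders, a small difference with little spread (−0.34 ± 0.08, adjusted p = 0.148). Both were lower in 3 of 3 Y/T KO libraries than in any Ctrl library.

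Among the Y/T KO bladders, that of mouse 782 was the highest for *Csrp1* and *Fblim1*. The same held for *Lims1*, *Lims2*, *Fhl2*, and *Pdlim7* and for the smooth muscle sum. *Csrp1* was at 6494, 7263, and 7270.4 rescaled TPM in Ctrl bladders, at 6541 in Y/T KO mouse 782, and at 4386 and 3786 in 783 and 780 (log2 fold change −0.55 ± 0.20, adjusted p = 0.281). *Fblim1* was at 109.7, 132, and 109 in Ctrl bladders, at 105 in mouse 782, and at 71.8 and 59.1 in 783 and 780 (−0.61 ± 0.21, adjusted p = 0.277). Among Y/T KO bladders, mouse 782, with little *Mylpf* transcript, lay within the Ctrl range for *Csrp1* and just below it for *Fblim1*. Y/T KO mice 783 and 780, rich in *Mylpf*, lay well below for both genes. The Ctrl bladder of 784, with *Mylpf* at 165 TPM, was the lowest Ctrl for *Csrp1* (6494) but not for *Fblim1* (109.7). In a fit without the 3 *Mylpf*-rich bladders, an alternative chosen after seeing the data, mouse 782 alone stands against 2 Ctrl bladders, and it is assumed to vary like the other groups. The log2 fold change was then −0.15 for *Csrp1*, −0.18 for *Fblim1*, −1.02 for *Lims2*, −2.37 for *Fhl1*, −0.48 for *Pdlim7*, and −0.34 for *Pdlim3*. None of these had an adjusted p under 0.609.

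*Ldb3* was highest where skeletal muscle transcripts were high. It was at 61.5, 40.8, and 39.5 rescaled TPM in Ctrl bladders and 39.6, 87.6, and 119 in Y/T KO bladders. The highest value of each genotype belonged to a mouse with *Mylpf* transcript, and mouse 782 lay within the Ctrl range. The log2 fold change of 0.68 ± 0.42 (adjusted p = 0.492) was −0.01 without the *Mylpf*-rich bladders. *Fhl2* (70.9, 82.0, and 56.4 in Ctrl, 76.8, 47.8, and 47.9 in Y/T KO) and *Pdlim5* (77.5, 92.5, and 67.3 in Ctrl, 62.5, 86.2, and 94.5 in Y/T KO) overlapped between genotypes, with log2 fold changes of −0.30 ± 0.23 and 0.03 ± 0.19. Both changed sign in the fit without those bladders, to 0.18 and −0.33.

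**Figure D4:**
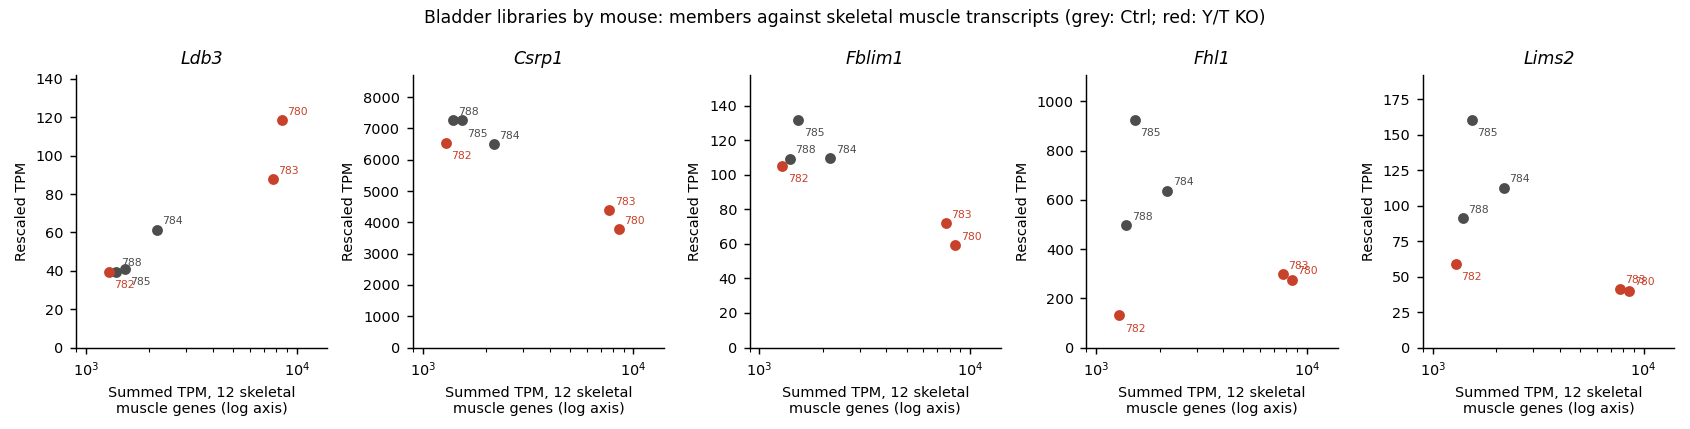
Rescaled TPM of 5 members (vertical axes, from 0) in the 6 bladder libraries, against the summed TPM of 12 skeletal muscle genes in the same library (horizontal log axis), with Ctrl in grey, Y/T KO in red, and the mouse number beside each point. Mice 783 and 780 lie at 7688 and 8506 on the horizontal axis, with *Ldb3* at its highest and *Csrp1* and *Fblim1* at their lowest, while *Fhl1* is lowest in mouse 782.

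Ratios within a library do not depend on its scaling. The ratio of *Lims2* to *Lims1* was 0.602, 0.392, and 0.548 in Ctrl and 0.295, 0.276, and 0.347 in Y/T KO colons. In the bladder it was 1.598, 1.78, and 1.07 in Ctrl and 0.871, 0.693, and 0.914 in Y/T KO mice. *Lims2* was therefore less abundant relative to its paralog in 3 of 3 Y/T KO libraries of each tissue, at −0.73 (colon) and −0.82 (bladder) on the log2 scale, and the bladder ratio passed from above 1 to below 1. The summed PINCH transcripts relative to *Ilk* were 0.443 to 0.573 in Ctrl and 0.170 to 0.290 in Y/T KO colons, and 0.368 to 0.441 in Ctrl and 0.268 to 0.329 in Y/T KO bladders. *Fhl1* relative to *Fhl2* was 4.71 to 9.35 in Ctrl and 1.75 to 6.13 in Y/T KO colons, which overlapped, and 8.81 to 11.3 in Ctrl and 1.70 to 6.20 in Y/T KO bladders, which did not. In exact two-sided permutation tests of the log2 ratios each comparison without overlap had p = 0.1, the smallest that 3 against 3 libraries can give, and the *Fhl1* ratio in the colon had p = 0.2. Adjusted over the 6 comparisons, these were 0.12 and 0.2.

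**Figure D5:**
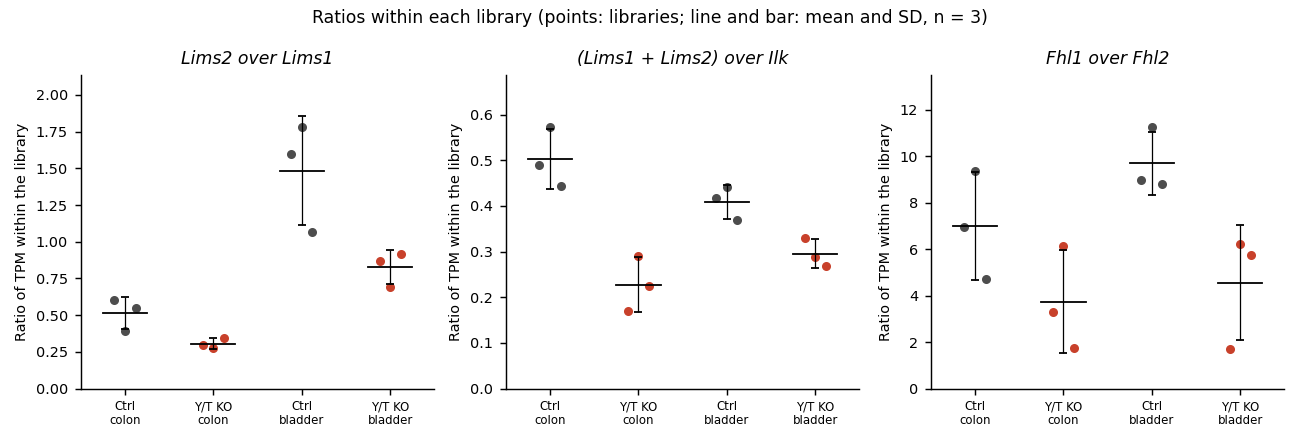
Ratios of TPM within each library (vertical axes, from 0) for *Lims2* over *Lims1*, *Lims1* plus *Lims2* over *Ilk*, and *Fhl1* over *Fhl2*, in Ctrl (grey) and Y/T KO (red) libraries, with the mean and SD of 3. The genotypes do not overlap in 5 of the 6 comparisons, the exception being *Fhl1* over *Fhl2* in the colon.

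Relative to the smooth muscle list, 1 member was called lower (*Lims2*) and 1 higher (*Fhl2*), both in the colon, where 0.291% and 21.8% of all genes were called, and no member was called in the bladder. Under this scaling the median log2 fold change of all genes was 0.53 (colon) and 0.62 (bladder). *Lims2* was at −1.33 in the colon (adjusted p = 0.0313) and −0.73 in the bladder (adjusted p = 0.0684) on the log2 scale. *Lims1* was at −0.61 in the colon (adjusted p = 0.0609) and 0.09 in the bladder (adjusted p = 0.769), and *Fhl1* at −0.12 and −0.96 (adjusted p = 0.801 and 0.221). *Fhl2* was at 0.92 in the colon (adjusted p = 0.0345). *Csrp1*, *Pdlim3*, *Fblim1*, *Pdlim5*, and *Ldb3* had positive values in both tissues, none of them called, and *Pdlim7* was at 0.33 (colon) and −0.09 (bladder).

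The difference of the genotype effect between tissues did not pass the adjusted threshold for any member (0.0552% of 16298 genes passed), and 1 member had an unadjusted p under 0.05, beside 12.6% of all genes (limma). That member was *Fhl2*, with 0.39 (colon), −0.30 (bladder), and a difference of −0.67 ± 0.27 (unadjusted p = 0.0323, adjusted p = 0.351). The differences for *Lims1* (0.62 ± 0.33, adjusted p = 0.450), *Lims2* (0.53 ± 0.34, adjusted p = 0.543), *Fhl1* (−0.93 ± 0.62, adjusted p = 0.554), and *Ldb3* (0.93 ± 0.45, adjusted p = 0.424) had wide errors. Larger fold changes of the PINCH genes in the colon and of *Fhl1* in the bladder were therefore not distinguished from equal effects.

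Within tissues the members did not vary as a block. After the mean of each tissue was removed, Pearson's r over the 12 libraries was 0.953 for *Fblim1* with *Csrp1*, 0.904 for *Lims1* with *Lims2*, and 0.841 for *Lims2* with *Pdlim3*, and −0.832 for *Fblim1* with *Ldb3*. These libraries share the genotype difference, the content of smooth and skeletal muscle transcripts, and in 3 cases the mouse, so the coefficients are descriptions. Against the mean of the smooth muscle list, r was 0.931 for *Csrp1*, 0.902 for *Fblim1*, 0.881 for *Lims2*, and 0.880 for *Lims1*, but 0.223 for *Fhl2*, −0.181 for *Pdlim5*, and −0.629 for *Ldb3*. Against the summed skeletal muscle markers, r was 0.890 for *Ldb3*, −0.896 for *Fblim1*, and −0.886 for *Csrp1*.

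The genes most like each member were sought among the 16288 other genes tested in both tissues. Each r below was picked as one of the 3 highest of 16288 coefficients over 12 libraries. The selection alone raises such values, and they were not tested. For *Lims1* they were *Atp2b4*, *Nkd1*, and *Synm* (r from 0.950 to 0.968), and for *Lims2* they were *Gm11627*, *Wscd2*, and *Acta2*, the smooth muscle actin (0.959 to 0.968). For *Fblim1* they were *Actn1*, an alpha-actinin, *Ikzf4*, and *Rnf212* (0.935 to 0.952), and for *Csrp1* they were *Ncs1*, *H2afy2*, and again *Rnf212* (0.945 to 0.952). For *Ldb3* they were *Asb11*, *Akr1c12*, and *Tmod4*, a tropomodulin of skeletal muscle (0.967 to 0.971). For *Fhl1* they were *Prrc1*, *Sorbs2*, and *Maml1* (0.911 to 0.926), and for *Fhl2* they were *Dnaic1*, *Gorasp2*, and *Tat* (0.898 to 0.934). For *Pdlim3* they were *Slco3a1*, *Wfdc1*, and *Proser2* (0.926 to 0.969), for *Pdlim5* *Prkx*, *Rell1*, and *Suco* (0.898 to 0.922), and for *Pdlim7* *Nebl*, *Ror2*, and 2600006K01Rik (0.911 to 0.938).

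Of 39 related genes (other LIM and PDZ-LIM genes and partners in complexes with PINCH), 35 (colon) and 38 (bladder) could be tested. None was called between genotypes (limma). In the bladder 9 were lower at an unadjusted p under 0.05, beside 8.2% of all genes. There 1 was higher, for which the share of all genes is not given here. In the colon 24 were lower on average (49.1% of all genes) and 11 higher, with a median log2 fold change of −0.12. In bladders 25 were lower (49.8% of all genes) and 13 higher, with a median of −0.29. *Lmcd1*, which encodes a LIM and cysteine-rich cofactor, was higher without overlap in both tissues, at 0.70 ± 0.24 in the colon (adjusted p = 0.461) and 0.95 ± 0.23 in the bladder (adjusted p = 0.163). In the colon *Pdlim2* (0.76), *Ajuba* (−0.63), and *Lpp* (−0.60), and in the bladder *Ablim1* (−1.29), *Crip1* (−0.91), and *Tes* (−0.85), also separated the genotypes. The relatives named here were picked from those without overlap. In the colon 3 of 35 were lower without overlap (7.87% of all genes) and 3 were higher (8.24%). In the bladder 11 of 38 were lower (11.4% of all genes) and only *Lmcd1* was higher. Without a share of all genes for the higher side in the bladder, the directions were not compared there.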

How the data were processed

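RNA of the colon and urinary bladder was sequenced by the authors from stranded libraries of polyadenylated RNA. HISAT2 and StringTie are named in the submitters' processing notes, with the build GRCm38 and no versions. The deposited TPM (transcripts per 1000000) and FPKM of the StringTie gene tables were made by the authors, as was the deposited coverage, the mean read depth over a gene. TPM was summed by gene ID. The start and end of 53499 of 54409 shared gene IDs were those of GENCODE M21. The files used hold no counts, so a test of log values was used in place of the study's count test, the counting error of a single value is unknown, and p-values measure the spread between mice.

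Within a tissue, TPM was rescaled by size factors (median of ratios). A gene was tested where 3 or more of the 6 libraries held at least 0.5 TPM as deposited, which left 17500 genes for colon and 18237 for bladder. After adding 0.1 to the rescaled TPM, log2 values were fitted with limma 3.58.1 in R 4.3.3 (trend and robust options), with Benjamini-Hochberg adjustment over all genes and a threshold of 0.05. Fold changes are on this log2 scale. Differences between tissues and of the genotype effect between tissues came from a fit to all 12 libraries with 4 group means. "Lower" or "higher without overlap" refers to rescaled TPM. The mouse numbers pair the tissues, since mice 788, 783, and 780 gave both. Deviations from group means correlated at 0.0440 on average in the 3 same-mouse pairs and −0.00891 in the 15 others, and the mouse was used as a block in an alternative fit.

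All 10 members are described. Of the related genes, those called and, in each tissue, the 4 with the largest fold change among those without overlap were named, and for each member the 3 genes with the highest r. The members and lists were chosen with earlier results of these data known. Scripts were tested on simulated data. Alternatives were other pseudocounts (0.5 and 1 TPM), filters and scalings, FPKM, coverage, a single fit, plain eBayes, and each library left out. Python 3.11.15 with pandas 2.3.3 and matplotlib 3.10.9 was used for tables and plots.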

Additional observations from a re-analysis of the deposited data

How the results depend on the processing

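Of 1139 recomputed values, 1024 kept their direction and side of the threshold (or moved little) and 46 changed sign. In the colon the *Lims2* call was lost, leaving 0 members called lower, without the filter on low values (−1.86, adjusted p = 0.0777), without the trend and robust options (adjusted p = 0.0797), with coverage in place of TPM (−1.74, adjusted p = 0.162), and in 5 of the 6 fits that left out 1 library (0 to 1 members called, the median of the members from −0.31 to −0.17, *Pdlim7* from −0.37 to 0.018). The cause was not tested. In the bladder, 1 member was called lower with all 12 libraries in one fit (*Lims2*, adjusted p = 0.0468) and in that fit with mouse added as a replicate block (0.0463). The block changed no other call between genotypes, and *Fhl1* between Y/T KO tissues was 0.0097 with it. *Pdlim5* in the bladder was −0.081 with coverage and from −0.094 to 0.20 with 1 library left out.

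Scaling to the smooth muscle list, which itself was lower in Y/T KO, gave 1 member called higher in the colon and medians of 0.30 and 0.086 in colon and bladder. In the colon *Fblim1* was then 0.38, *Csrp1* 0.31, *Pdlim3* 0.26, *Pdlim5* 0.41, *Pdlim7* 0.33, and *Ldb3* 0.29. In the bladder *Lims1* was 0.094, *Fblim1* 0.023, *Fhl2* 0.33, *Csrp1* 0.077, and *Pdlim3* 0.29, and the difference between effects was 0.028 for *Pdlim3*. Between tissues, 6 members were called lower and 0 higher in Ctrl bladders (beside 87.8% and 1.31% of all genes), with *Lims1* −1.96, *Lims2* −0.45, *Fhl1* −1.36, *Fhl2* −1.87, *Pdlim5* −1.66, and *Pdlim7* −0.88. In Y/T KO bladders 6 were called lower and 1 higher (beside 87% and 1.64%, the median of all genes being −2.20), with *Lims1* −1.26, *Csrp1* −0.084, *Pdlim5* −1.41, and *Pdlim7* −1.30.

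Without the 3 *Mylpf*-rich bladders, *Fhl2* was 0.18, *Pdlim5* −0.33, and *Ldb3* −0.013 between bladder genotypes, and the difference of effects was 0.084 for *Csrp1* and −0.20 for *Pdlim5*. Between tissues *Fblim1* was 0.021 in Ctrl, and 0 members were called lower in Y/T KO, with *Fblim1* at 7.69e-05 and *Fhl2* at 0.21, and 6 higher, with *Pdlim5* at 0.45 (adjusted p = 0.149). With TPM as deposited, *Fblim1* was 0.22 in Ctrl, where *Fhl1* (1.18, adjusted p = 0.0481) and *Fhl2* (0.67, adjusted p = 0.0142) were called higher in the bladder, and in Y/T KO 0 members were called lower, with *Fhl1* 0.27 and *Fhl2* 0.016. The call of *Fblim1* between Y/T KO tissues was also lost without the trend and robust options and without the filter (0 called lower in each). It was lost as well in 9 of the 12 fits that left out 1 library. With 1 library left out, 0 to 2 members were called lower there, *Fhl1* ran from −0.39 to 0.42, *Fblim1* in Ctrl ran from −0.12 to 0.0043, and the *Pdlim3* difference of effects ran from −0.15 to 0.063.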
